A study of Arabidopsis thaliana with 12 samples.

Results

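Of the 33602 loci in the count tables, 4 are described here as genes whose messenger RNA was lost mainly in the quadruple mutant. They are *MYB10* (AT3G12820), *PGL2* (AT3G49360), AT4G11610 and AT2G32430. They were picked from these data because the loss of PIF3 lowered them far more when PIF1, PIF4 and PIF5 were also missing, so their levels over the genotypes and every contrast between genotypes are a description. No p-value is given for them, and the counts of those past a threshold restate the choice. The rule set no numerical threshold. Whole *Arabidopsis thaliana* seedlings were harvested after 2 days of growth in true darkness. The 4 genotypes were wild type (WT), *pif3*, the triple mutant *pif1pif4pif5* (*pif145*) and the quadruple mutant *pif1pif3pif4pif5* (*pifq*), with 3 biological replicates each. According to the study's methods all lines were in the Col-0 accession, and the alleles behind the mutant names are not described here. The 3′ ends of polyadenylated RNA were sequenced, and a library held between 23907577 and 41247734 counts.

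PIFs (phytochrome-interacting factors) are DNA-binding proteins of the basic helix-loop-helix class. They build up in dark-grown seedlings and are degraded once light activates phytochrome. They hold the seedling in its dark programme of hypocotyl elongation, closed cotyledons and delayed greening, and they bind the G-box (CACGTG). Binding to a related E-box called the PBE-box (CACATG) has been reported for PIF1, PIF3 and PIF4. The study cites a report in which PIF5 did not bind it. Several PIFs can act on the same gene, so removal of a single one may leave its level little changed while another is still present.

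The tags of the targeted genes were checked first. Levels are in CPM, the count relative to the scaled library total. The 2 genotypes with an intact *PIF3* averaged 61.7 (WT) and 46.9 CPM (*pif145*) for its tag, and the others 1.14 (*pif3*) and 0.945 CPM (*pifq*). For *PIF1* the means were 9.75 (WT) and 9.31 CPM (*pif3*) where the gene was intact, but 0.145 (*pif145*) and 0.0955 CPM (*pifq*) where it was not. *PIF5* gave 129 reads in WT and 178 in *pif3*, but 4 in *pif145* and 2 in *pifq*. *PIF4* tags remained in all genotypes, at mean levels from 2.77 CPM (*pifq*) to 5.53 CPM (*pif145*), and a tag at the 3′ end does not check a lesion elsewhere in the gene.

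*MYB10* lies on chromosome 3 from 4073855 to 4075643 on the minus strand (assembly TAIR10.1, as for all positions here, since the count tables carry none) and has 3 exons and a coding length of 720 bases. *PGL2* lies on the same chromosome, 14.2 Mb away, from 18303007 to 18304466 on the minus strand, with 3 exons and 780 coding bases. AT2G32430 runs from 13771296 to 13774502 on the plus strand of chromosome 2 and has 11 exons and 1230 coding bases. AT4G11610 runs from 7013729 to 7018089 on the minus strand of chromosome 4 and has 5 exons and 3036 coding bases. The counts came from the last 500 bases of each transcript, and all 465 windows of 36 bases in that stretch were unique to the gene among the annotated transcripts for each of the 4 genes. None of the 4 was next to a mutated gene, the nearest being *PGL2* at 3.52 Mb from *PIF5*.

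The sequence before each gene was searched for both hexamers, the palindromic CACGTG and CACATG on either strand. No match of one hexamer shared bases with a match of the other. From 250 bases before to 50 bases after the annotated start, none of the 4 genes held either hexamer. Over the 27443 protein-coding genes with such a window, 7.68% held CACGTG and 12.9% held CACATG. Within 1000 bases before the start, AT4G11610 held 3 CACATG matches and AT2G32430 held 2, whereas *MYB10* and *PGL2* held neither hexamer. Of all protein-coding genes, 37.7% had CACATG and 14.8% had CACGTG in that distance. Within 3000 bases, *MYB10* had 1 CACGTG match, at 1032 bases, and AT2G32430 had 2, at 2278 and 2180 bases. *MYB10* also had 5 CACATG matches there, from 1853 to 2882 bases, and AT2G32430 had 10. At that distance 31.7% of genes held CACGTG and 8.9% held 2 or more, and 75.3% held CACATG. *PGL2* had no CACGTG match, and both of its CACATG matches, at 1368 and 2727 bases, fell within the neighbouring gene AT3G49370.

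Stretches that hold some of these matches are shown 5′ to 3′ in the direction of the gene, with each hexamer in capitals. CATGTG is CACATG read on the other strand. The stretches are chr3:4076643-4076702 before *MYB10*, chr2:13768997-13769136 before AT2G32430 and chr4:7018496-7018795 before AT4G11610. The CACATG matches of AT2G32430 at 946 and 405 bases, those of *MYB10* and those of *PGL2* are not shown. The stretch chr2:19298938-19299097 before *PIL1*, a well known PIF target with 3 CACGTG matches, is given for comparison. A match is a description of the letters and does not show a site in use.
MYB10: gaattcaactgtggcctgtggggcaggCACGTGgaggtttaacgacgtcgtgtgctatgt
AT2G32430: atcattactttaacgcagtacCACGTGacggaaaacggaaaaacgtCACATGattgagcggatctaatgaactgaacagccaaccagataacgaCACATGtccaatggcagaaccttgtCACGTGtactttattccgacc
AT4G11610: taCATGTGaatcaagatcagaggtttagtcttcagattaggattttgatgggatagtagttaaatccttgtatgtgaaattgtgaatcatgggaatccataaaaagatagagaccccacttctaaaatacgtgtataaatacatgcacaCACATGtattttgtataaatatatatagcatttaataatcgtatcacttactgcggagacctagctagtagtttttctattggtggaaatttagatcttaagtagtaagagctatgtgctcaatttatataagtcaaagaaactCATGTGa
PIL1: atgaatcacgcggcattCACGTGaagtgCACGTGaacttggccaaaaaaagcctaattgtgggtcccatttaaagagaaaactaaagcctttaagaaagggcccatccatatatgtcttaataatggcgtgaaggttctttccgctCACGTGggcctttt

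AT2G32430 had 2 CACATG matches between its 2 CACGTG matches, and AT4G11610 had its 3 CACATG matches within 300 bases. *MYB10* had a lone CACGTG match. The comparison genes *HFR1* and *XTH15* held 2 and 1 CACGTG matches within 3000 bases, respectively.

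**Figure D1:**
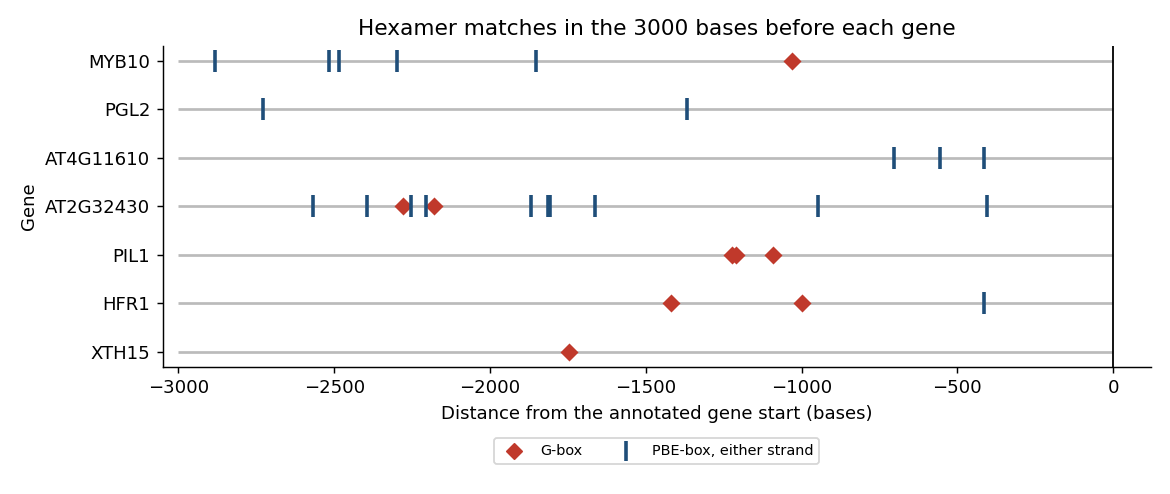
Hexamer matches in the 3000 bases before the annotated start of the 4 genes and of *PIL1*, *HFR1* and *XTH15*, with distance from the start on the horizontal axis (diamonds, G-box; bars, PBE-box on either strand). AT2G32430 carried 2 G-box and 10 PBE-box matches, and *PGL2* carried no G-box match.

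*MYB10* encodes an R2R3-MYB transcription factor, known in roots for acting with its relative MYB72 in the response to iron shortage. Its level was 38.2, 31.9 and 33.3 CPM in WT replicates 1, 2 and 3, and 26.7, 20.1 and 21.3 CPM in *pif3*. In *pif145* it was 30.0, 29.4 and 30.8 CPM. In *pifq* it was 3.26, 2.29 and 2.93 CPM, from 237 reads in all. No pair of genotypes overlapped for *MYB10*, but the lowest WT library was only 1.04 times the highest *pif145* library, whereas the lowest *pif145* library was 9.03 times the highest *pifq* library. The means were 34.4 ± 3.31, 22.7 ± 3.49, 30.1 ± 0.665 and 2.83 ± 0.494 CPM in the same order (SD, n = 3).

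Loss of PIF3 alone took *MYB10* to 65.9% of its WT level, and loss of PIF1, PIF4 and PIF5 to 87.3%. Loss of all 4 left 8.20%. On the log2 scale the *pif3*/WT ratio was -0.60 (SE 0.16) and the *pifq*/*pif145* ratio was -3.42 (SE 0.17). Both ratios measure the removal of PIF3, and the second minus the first, called the interaction here, was -2.82 (SE 0.23). If the effects of the single and the triple mutant had multiplied, *pifq* would have stood at 19.8 CPM, and the observed level was 0.142 of that.

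*PGL2* encodes a 6-phosphogluconolactonase, the enzyme of the second step of the oxidative pentose phosphate pathway, which supplies NADPH. It was the least abundant of the 4 in reads, with 512 in WT and 36 in *pifq*. Its WT libraries stood at 4.07, 6.28 and 4.34 CPM, and those of *pif3* at 5.44, 5.73 and 5.56 CPM. Those of *pif145* stood at 2.50, 2.56 and 2.97 CPM. The *pifq* libraries were at 0.334, 0.330 and 0.637 CPM, from 8, 13 and 15 reads. WT and *pif3* overlapped, *pif145* lay below both, and *pifq* lay below *pif145*. The exact 95% Poisson interval of the 36 *pifq* reads was 25.2 to 49.8, which covers counting error only.

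*PGL2* was the gene whose *pif145* mean was farthest from WT among the 4, at 54.7% of it (log2 ratio -0.87, SE 0.23). The *pif3* mean was 114% of WT (log2 ratio 0.19, SE 0.22). The log2 ratio *pifq*/*pif145* was -2.65 (SE 0.28), and the interaction was -2.83 (SE 0.36). The observed *pifq* level was 0.142 of the level that multiplied effects would give, the same share as for *MYB10*. The summed level of 5 genes listed as seed reserve markers was 496 to 1321 CPM in WT and 585 to 1009 CPM in *pif3*. It was 65.7 to 129 CPM in *pif145* and 82.3 to 139 CPM in *pifq*, with none of the 5 at 0 in any genotype. It was lower in *pif145* than in WT, as was *PGL2*, but its *pif145* and *pifq* ranges overlapped, and its part in the *PGL2* values was not tested. The 5 did not move alike. *CRA1* (637 CPM in WT and 52.4 CPM in *pif145* on average) and *CRC* (150 and 18.9 CPM), both seed storage proteins, made up most of the sum. *OLEO1* overlapped (20.4 to 42.2 CPM and 13.6 to 23.0 CPM). *EPR1*, annotated as a proline-rich extensin rather than a reserve protein, averaged 0.462 and 0.621 CPM.

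AT2G32430 encodes a member of the galactosyltransferase family (glycosyltransferase family 31, GT31), to which enzymes that add galactose to cell wall arabinogalactan proteins belong. Its level was 27.7, 29.6 and 30.3 CPM in WT and 31.7, 25.6 and 26.6 CPM in *pif3*. It was 30.0, 28.8 and 31.0 CPM in *pif145* and 9.99, 9.73 and 9.60 CPM in *pifq*. The libraries of WT, *pif3* and *pif145* overlapped one another, so that 9 libraries formed a range of 25.6 to 31.7 CPM and only the *pifq* libraries stood below it. The lowest *pif3* library was 2.56 times the highest *pifq* library.

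The AT2G32430 mean was 95.7% of WT in *pif3* and 102% in *pif145*. It was 33.4% in *pifq*, the mildest loss among the 4 genes. The log2 ratio for loss of PIF3 was -0.06 (SE 0.13) in the WT background and -1.62 (SE 0.13) in the *pif145* background, with an interaction of -1.55 (SE 0.18). Loss of PIF1, PIF4 and PIF5 gave 0.03 (SE 0.13) when PIF3 was present and -1.52 (SE 0.13) when it was absent.

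AT4G11610 is annotated as a C2 calcium/lipid-binding protein and belongs to the multiple C2 domain and transmembrane region proteins (MCTPs), several of which sit at plasmodesmata. Its WT libraries were at 162, 183 and 198 CPM and its *pif3* libraries at 139, 108 and 134 CPM. The *pif145* libraries were at 155, 173 and 197 CPM and the *pifq* libraries at 34.8, 34.2 and 38.7 CPM. WT and *pif145* overlapped, *pif3* lay just below both, and the lowest *pif3* library was 2.80 times the highest *pifq* library. Its *pifq* counts came from 3089 reads, and the coefficient of variation over its *pifq* libraries was 6.73%, against 3.12% from counting alone.

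The AT4G11610 mean was 19.8% of WT in *pifq*, against 70.2% in *pif3* and 96.8% in *pif145*. Its log2 ratios were -0.51 (SE 0.15) for *pif3*/WT, -0.05 (SE 0.15) for *pif145*/WT and -2.29 (SE 0.15) for *pifq*/*pif145*. The interaction was -1.78 (SE 0.21). As with *MYB10*, the single mutant *pif3* had a lower mean than the triple mutant *pif145*.

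**Figure D2:**
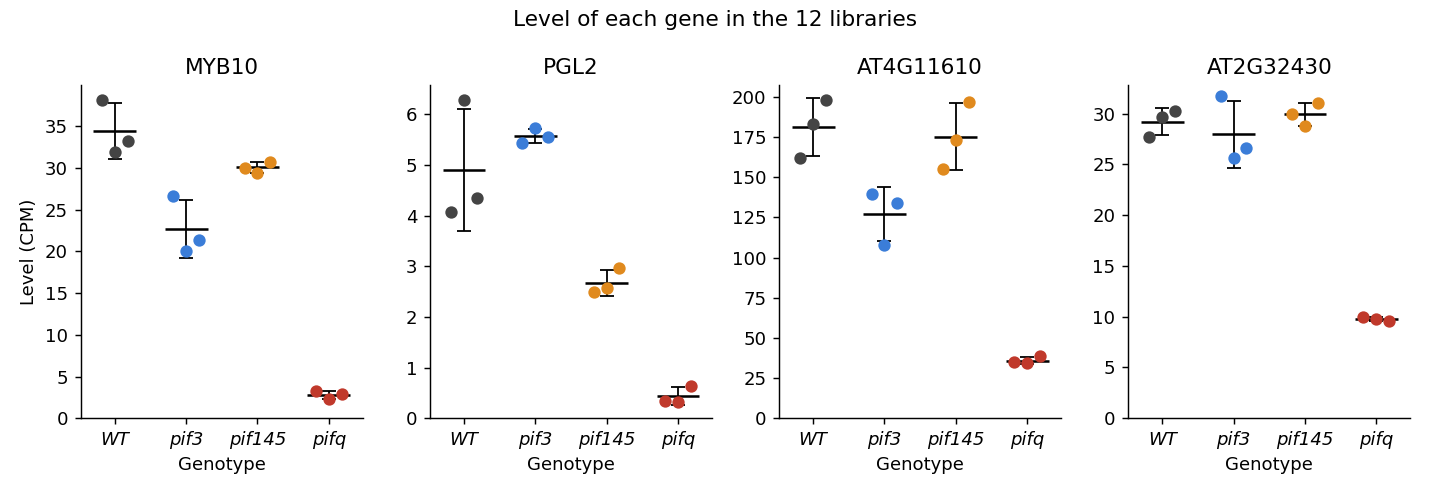
Level in CPM (vertical axis, from 0, with its own range per gene) of the 4 genes in the 12 libraries by genotype. Points are libraries in the order of replicates 1 to 3, horizontal lines are means and bars are SD. The 3 *pifq* libraries lay below all other libraries of every gene, and *PGL2* was the gene whose *pif145* libraries also lay apart from WT by the widest gap. The genes were chosen on these libraries. The share of all genes whose *pifq* libraries lay lowest was not computed, and nothing is read from this separation.

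All 4 genes passed the threshold for a fall (adjusted p at most 0.05 by edgeR's quasi-likelihood test and at least a 2-fold change) in *pifq*/*pif145*, where 0.474% of the 18356 genes tested fell, in *pifq*/WT, where 3.35% fell, and in *pifq*/*pif3*, where 2.53% fell. All 4 also passed the interaction, as did 0.0817% of genes in the lower direction. None of the 4 passed in *pif3*/WT, where 0.0381% of genes changed, or in *pif145*/WT, where 1.71% changed. The choice of the genes fixes these counts, and nothing is read from them. The number of all genes called depended on the model. With the replicate number as a block it was 472 in place of 20 for the interaction, 346 in place of 133 for *pifq*/*pif145* and 135 in place of 7 for *pif3*/WT, and the choice of the 4 genes also fixes their counts there.

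The 4 genes differed in size and in the part taken by the single mutant. The *pifq* level as a share of the multiplied expectation was 0.142 for *MYB10* and *PGL2*, 0.292 for AT4G11610 and 0.341 for AT2G32430. Taken by replicate number, the interaction was negative in every case, from -2.69 to -3.02 for *MYB10*, from -2.57 to -3.32 for *PGL2*, from -1.58 to -1.94 for AT4G11610 and from -1.35 to -1.78 for AT2G32430. The *pif3*/WT difference by replicate number had the same sign in the 3 replicates for *MYB10* and AT4G11610 only. It was 0.42, -0.13 and 0.36 for *PGL2* and 0.19, -0.21 and -0.19 for AT2G32430, on the log2 scale.

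*PIL1*, *HFR1* and *XTH15*, well known PIF targets that were not chosen by the rule, were set beside the 4 genes. *PIL1* and *HFR1* encode helix-loop-helix proteins of the shade response, and *XTH15* a xyloglucan enzyme of the cell wall. All 3 fell in *pif145*/WT, with log2 ratios of -2.47 (SE 0.34, adjusted p = 0.00291), -2.48 (SE 0.18, adjusted p = 2.67e-05) and -1.67 (SE 0.23, adjusted p = 0.00265) by edgeR. The *pif145*/WT ratios of *MYB10*, AT4G11610 and AT2G32430 were between -0.20 and 0.03, and that of *PGL2* was -0.87. *PIL1* went from 47.1 ± 10.4 CPM in WT and 31.2 ± 4.16 CPM in *pif3* to 8.54 ± 3.04 CPM in *pif145* and 0.443 ± 0.370 CPM in *pifq* (SD, n = 3).

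*PIL1*, *HFR1* and *XTH15* were taken for comparison with earlier results of these data known, so the test of their interaction is not independent of that choice. The interaction was -3.53 for *PIL1* (SE 0.55, adjusted p = 0.0256), -1.67 for *HFR1* (SE 0.26, adjusted p = 0.0286) and -2.61 for *XTH15* (SE 0.33, adjusted p = 0.00888) by edgeR. The call of *XTH15* held when any single library was left out. It was lost without replicate 2 or 3 of all genotypes (adjusted p 0.679 to 0.703), in fits where no gene at all was called. The call of *PIL1* was lost in 10 of 12 single omissions and that of *HFR1* in 11 of 12 (adjusted p up to 0.103 and 0.119). All these omissions were fitted with genotype as the only term, without the replicate block.

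**Figure D3:**
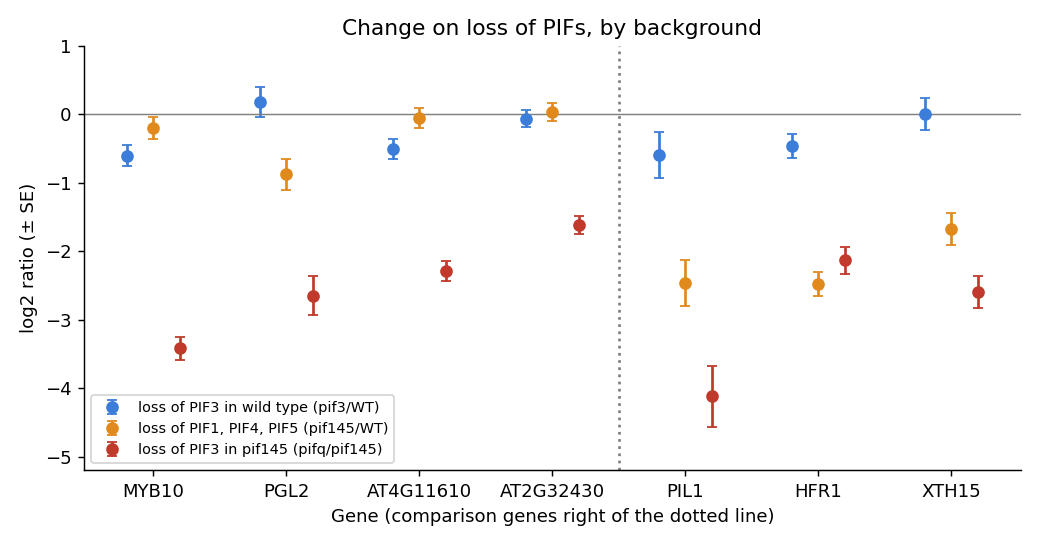
log2 ratio ± SE (vertical axis) for loss of PIF3 in WT, loss of PIF1, PIF4 and PIF5, and loss of PIF3 in *pif145*, for the 4 genes and, right of the dotted line, *PIL1*, *HFR1* and *XTH15*. *MYB10*, AT4G11610 and AT2G32430 had a *pif145*/WT ratio near 0 (-0.20, -0.05 and 0.03), whereas the 3 comparison genes stood between -2.48 and -1.67.

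The other genes of the iron response were described as a list. Of 29 genes for iron uptake and its regulation, 21 were tested, and 1 rose and 0 fell past the thresholds in *pifq*/WT, where 4.92% of all genes rose and 3.35% fell. The median log2 ratio of the 21 was 0.09, against -0.03 over all genes. The 1 that rose was *NAS4*, a nicotianamine synthase that makes an iron chelator and is a known target of MYB10 and MYB72 in iron-starved roots. *NAS4* was at 1.55, 1.15 and 1.01 CPM in WT and 9.86, 4.70 and 5.73 CPM in *pifq*, with no overlap, and its log2 ratio was 2.45 (SE 0.36, edgeR adjusted p = 0.000716). Its mean level was highest in the genotype in which *MYB10* was lowest. *URI* (*bHLH121*), a bHLH factor of iron regulation, was lower in *pifq* (9.23, 9.76 and 7.35 CPM) than in WT (15.5, 14.8 and 13.1 CPM) with no overlap, and its log2 ratio of -0.72 (SE 0.17, edgeR adjusted p = 0.0112) was short of a 2-fold change.

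In *pif145*, *NAS4* was at 3.19, 1.76 and 1.43 CPM, which overlapped WT and lay below *pifq*. Its *pifq*/*pif145* ratio of 1.64 (SE 0.35) missed the threshold by edgeR (adjusted p = 0.0516) and passed with the replicate block (adjusted p = 2.44e-06). With that block *NAS1*, another nicotianamine synthase, also passed in *pifq*/WT (log2 ratio 1.80, adjusted p = 0.00796), which made 2 genes of the list, and it passed in *pif145*/WT (log2 ratio 2.43, adjusted p = 0.000776). Each *NAS1* call was lost without 1 library. Its *pif145* libraries were at 1.88, 0.280 and 0.376 CPM, from 76, 7 and 10 reads, and without the first of them the *pif145*/WT ratio was 1.71 (adjusted p = 0.0549). Without WT replicate 1 the *pifq*/WT ratio was 1.31 (adjusted p = 0.102). These omissions with the block kept were chosen after seeing the data. *MYB72*, the closest partner of *MYB10*, had 0 reads in every library, as had *S8H* and *CYP82C4*, enzymes of the secreted coumarins that mobilise iron, and *IRT1*, the root iron transporter, had reads in 1 *pif145* library only. Other coumarin genes of the list were not silent. In WT and *pifq*, *F6H1* averaged 4.99 and 7.09 CPM, *ABCG37* 9.77 and 7.25 CPM and *BGLU42* 4.38 and 4.70 CPM. *FIT*, the bHLH factor upstream of *MYB10* and *MYB72* in roots, averaged 4.08 ± 1.13 CPM in WT and 4.13 ± 1.64 CPM in *pifq* (SD, n = 3).

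The list for *PGL2* held 24 other genes of the oxidative pentose phosphate pathway, of which 23 were tested. In *pifq*/WT 2 rose and 0 fell, and their median log2 ratio was 0.24. *PGL1*, a lactonase of the same family as *PGL2*, went the other way from it, from 1.85 ± 0.203 CPM in WT to 4.41 ± 1.53 CPM in *pifq* (SD, n = 3), a log2 ratio of 1.25 (SE 0.34, edgeR adjusted p = 0.0232). *G6PD3*, a glucose-6-phosphate dehydrogenase of the first step, rose by a log2 of 1.51 (SE 0.40, edgeR adjusted p = 0.0203). By edgeR without the block, both calls were lost without WT replicate 2, WT replicate 3 or *pifq* replicate 1 (adjusted p from 0.0732 to 0.0904). With all libraries, *PGL1* and *G6PD3* were also called with the replicate block (edgeR adjusted p = 2.95e-05 and 8.77e-05). DESeq2 called both as well (adjusted p = 0.00345 and 0.00218). *PGL3*, which encodes the lactonase of plastids and was the most abundant of the lactonases in reads, was at 130 ± 30.3 CPM in WT and 121 ± 27.0 CPM in *pifq*. *PGL4* was at 3.91 ± 0.742 and 4.09 ± 0.601 CPM.

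Of 15 other MCTP genes 11 were tested, and 1 rose and 0 fell in *pifq*/WT, with a median log2 ratio of 0.09. The 1 was AT3G03680, at 9.65 ± 2.08 CPM in WT and 20.7 ± 3.32 CPM in *pifq* (SD, n = 3), a log2 ratio of 1.10 (SE 0.19, edgeR adjusted p = 0.00172). Its ratio was below 2-fold without WT replicate 3 (0.96) or without *pifq* replicate 1 (0.98). Of 19 other GT31 genes 16 were tested, and 0 rose and 1 fell, with a median log2 ratio of -0.33. Their median was -0.31 in *pif145*/WT and -0.04 in *pifq*/*pif145*. AT2G32430 differed, with a *pif145* mean at 102% of WT and a *pifq* mean at 32.6% of *pif145*. The 1 GT31 gene that fell was AT4G26940, whose libraries went from 16.6, 24.2 and 26.8 CPM in WT to 9.36, 9.40 and 12.5 CPM in *pifq*.

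AT4G26940 had a log2 ratio of -1.11 in *pifq*/WT (SE 0.29, edgeR adjusted p = 0.0195). In the fit without the block it was lost as a call without WT replicate 2 or 3 or without *pifq* replicate 1 or 2 (adjusted p 0.0615 to 0.0701). With all libraries it was also called with the replicate block (edgeR adjusted p = 3.61e-07) and by DESeq2 (adjusted p = 0.00294). It was the only gene of the 4 lists called as fallen in *pifq*/WT. Another GT31 gene, AT1G05170, was also lower in *pifq* (10.2, 16.9 and 16.5 CPM) than in WT (18.7, 26.9 and 26.4 CPM), and its log2 ratio of -0.72 did not pass (edgeR adjusted p = 0.0913). The *pif145* libraries of AT1G05170, at 12.9, 23.0 and 23.0 CPM, overlapped those of WT and of *pifq*. So did the *pif145* libraries of AT4G26940, at 9.43, 18.6 and 20.3 CPM. In *pifq*/*pif3* *NAS4* rose (log2 ratio 1.83, edgeR adjusted p = 0.00677) and AT4G26940 fell (log2 ratio -1.03, edgeR adjusted p = 0.0405), and with the replicate block *NAS1*, *PGL1* and *bHLH34*, an iron response factor, rose there too. No gene of the 4 lists was called in *pif3*/WT, *pif145*/WT, *pifq*/*pif145* or the interaction by edgeR without the block. The counts at an unadjusted p under 0.05 were 0, 4, 1 and 0 for the iron list, 0, 5, 3 and 0 for the pentose phosphate list, 1, 1, 1 and 0 for the MCTP list and 0, 1, 0 and 0 for the GT31 list. Over all genes tested, 4.63%, 16.8%, 8.78% and 3.09% were at such a p in those 4 contrasts. In *pifq*/WT the counts were 5 of 21, 10 of 23, 1 of 11 and 4 of 16 in the order of the lists, where 31.5% of all genes were, and in *pifq*/*pif3* they were 5, 8, 3 and 3, where 24.9% were. DESeq2 called *NAS1* in *pif145*/WT, with the reads above, and *NAS4* in *pifq*/*pif145* and none in the other 2.

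**Figure D4:**
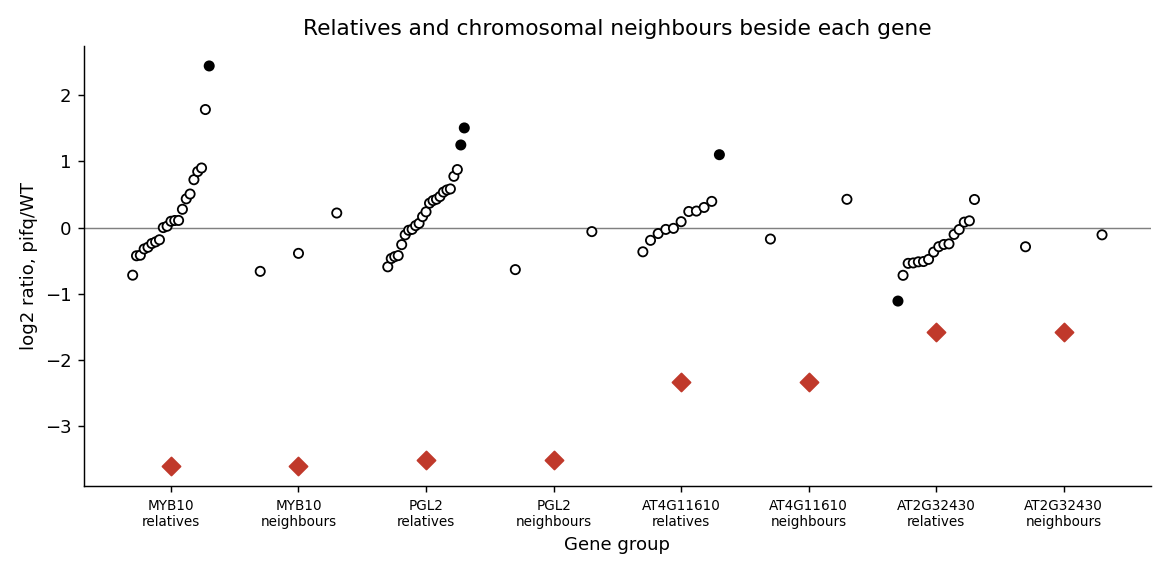
log2 ratio *pifq*/WT (vertical axis) of each of the 4 genes (red diamonds) beside the tested genes of its list and its chromosomal neighbours (circles, filled where called). Among the circles *NAS4* was highest, at 2.45, and AT4G26940 was lowest, at -1.11.

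No neighbour of the 4 genes on the chromosome was called. All 9 were tested, and 0 passed in any of the 6 contrasts by edgeR, by DESeq2 or with the replicate block. In *pifq*/*pif145* their log2 ratios lay between -0.42 and 0.19 and in *pifq*/WT between -0.66 and 0.43. By edgeR without the block, 0 of 9 were at an unadjusted p under 0.05 in either. Taken by replicate number, AT3G12830, *PIE1*, AT3G49350, *GPX6* and *KAO2* were lower in *pifq* than in WT in all 3 replicates. Against *pif145*, AT3G49350 alone was lower in *pifq* in all 3. The share of all genes lower in this way was not computed, and nothing is read from these signs. AT3G49350, next to *PGL2*, was at 19.3, 39.2 and 47.1 CPM in WT and 9.82, 27.1 and 31.0 CPM in *pifq*. *KAO2*, a gibberellin synthesis gene that begins 85 bases past the end of AT2G32430 on the same strand, was at 11.8 to 16.5 CPM in WT and 10.4 to 14.7 CPM in *pifq*, which overlapped. AT3G49370, annotated as a calcium-dependent protein kinase family gene, ends 170 bases before the start of *PGL2* on the same strand and was at 0.987 ± 0.104 CPM in WT and 0.955 ± 0.296 CPM in *pifq* (SD, n = 3). AT4G11630, a ribosomal protein gene that starts 1574 bases from AT4G11610 in the opposite direction, was at 3.88 ± 1.58 and 5.21 ± 1.12 CPM.

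*PIE1*, a chromatin remodelling gene, overlaps the 3′ end of *MYB10* by 340 bases on the opposite strand. Reads were counted on the coding strand only, so that the genes were read apart. *PIE1* was at 1.10, 0.733 and 0.922 CPM in WT and 0.794, 0.661 and 0.255 CPM in *pifq*, which overlapped. Its lowest unadjusted p was in *pif3*/WT (0.449, 0.407 and 0.511 CPM in *pif3*, unadjusted p = 0.0197, edgeR adjusted p = 0.899).

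The genes of most similar pattern were found by the root mean square difference of log2(CPM + 0.5) over the 12 libraries, each gene relative to its own WT mean, among 13714 genes of at least 2 CPM on average. For *MYB10* they were *RD20* (0.39), *CYP96A5* (0.40), *OLEO3* (0.41), *BBX23* (0.51) and *ACS5* (0.54). Mean levels of *RD20*, from WT through *pif3* and *pif145* to *pifq*, were 10.3, 5.27, 6.33 and 0.400 CPM. For *PGL2* they were *LTI78* (0.25), AT4G25260 (0.30), *ACS5* (0.36), AT2G18969 (0.36) and *PDC3* (0.38). *LTI78* averaged, in the same order, 29.8, 32.4, 19.4 and 5.24 CPM, with *pif3* near WT and *pif145* between, as for *PGL2*. *ACS5*, which encodes an ethylene synthesis enzyme, was among the nearest of both. The added 0.5 CPM is more than the *pifq* means of *PGL2* (0.434 CPM), *RD20* and *CYP96A5* (0.0279 CPM, from 3.89 CPM in WT). It therefore reduces the differences in how far such genes fell.

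For AT4G11610 they were *FLA13* (0.24), *ACS8* (0.28), *CEL2* (0.28), *RL5* (0.35) and *GH9B13* (0.36). *CEL2* averaged 40.5, 25.7, 38.6 and 8.75 CPM, with *pif3* below *pif145*. For AT2G32430 they were AT2G14900 (0.24), AT3G17110 (0.25), *CYP78A6* (0.26), AT5G17850 (0.26) and AT5G01790 (0.27). AT2G14900 averaged 37.4, 33.6, 28.8 and 13.2 CPM, and its *pif145* mean was below its *pif3* mean, unlike that of AT2G32430. Among the 4 genes themselves the closest pair was AT4G11610 and AT2G32430 (0.46) and the farthest was *MYB10* and AT2G32430 (0.98). These likenesses share the libraries and the choice of the 4 genes and carry no test.

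**Figure D5:**
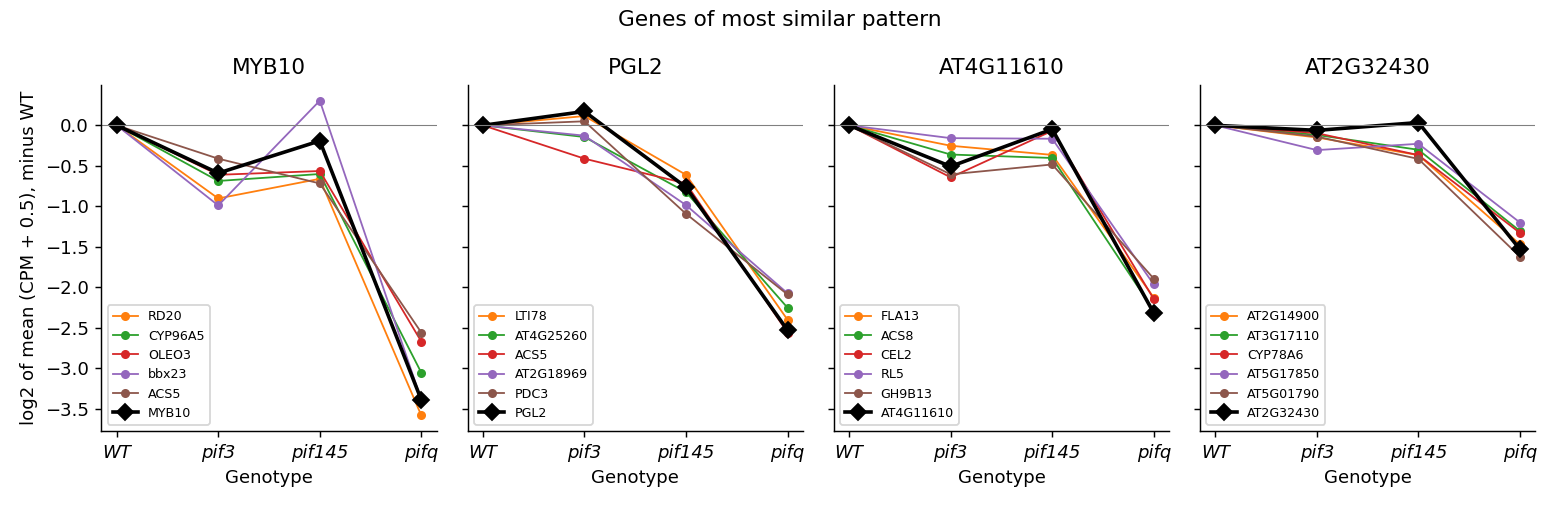
Mean level by genotype, as log2 of the mean (CPM + 0.5) minus that of WT (vertical axis), of each of the 4 genes (black) and the 5 genes nearest to it (coloured). The steepest step of the 4 black lines was from *pif145* to *pifq*, where *MYB10* went from 30.1 to 2.83 CPM.

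The seedlings were sampled whole, so fewer cells of a type and less RNA per cell cannot be told apart. The summed levels of root, root hair, xylem and phloem marker lists overlapped between *pifq* and WT. The root markers did not move alike. *SHR* was lower in *pifq* (28.3, 24.7 and 25.4 CPM) than in WT (34.1, 30.9 and 36.2 CPM) with no overlap. In WT and *pifq*, *PHO1* averaged 9.28 and 5.70 CPM and *SMB* 4.94 and 4.73 CPM. *SCR* averaged 12.6 and 13.7 CPM and *WOX5* 0.127 and 0.217 CPM. The part of these markers in the values of the 4 genes was not tested. The summed level of the stomatal lineage markers, none of which was at 0 in any genotype, lay at 14.8 to 16.1 CPM in *pifq*, above the 10.2 to 14.5 CPM of the other 9 libraries, and its part in the values of the 4 genes was not tested. Its members did not move alike. *FAMA* carried the sum (10.2 CPM in WT and 12.7 CPM in *pifq* on average), *MYB60* averaged 1.55 and 0.920 CPM, and *SPCH* had 0 reads in 5 of the 12 libraries.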

How the data were processed

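Messenger RNA of whole dark-grown seedlings of 4 *Arabidopsis* genotypes was measured in 12 libraries, 3 per genotype, grouped by the sample labels. The deposited tables hold raw read counts per locus as the authors made them, 1 table per genotype. According to the study's methods, replicate 1 was run on a GAIIx and replicates 2 and 3 on a HiSeq2000, and reads of 36 bases were aligned with Bowtie, allowing 0 mismatches. The methods name TAIR9 and the submitters' processing notes name TAIR10, Bowtie 0.12.7 and CASAVA 1.7.0. Only unique reads in the last 500 bases of the coding strand were counted, so a lesion elsewhere in a gene is not seen.

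Counts were scaled by TMM and fitted with the quasi-likelihood method of edgeR 4.0.16 in R 4.3.3 (limma 3.58.1), with genotype as the only term over the 12 libraries and edgeR's expression filter, which left 18356 of 33602 loci, among them the 4 genes. Each mutant was compared with WT, and *pifq* also with *pif145* and with *pif3*. The further contrast was the interaction, the log2 of *pifq*/*pif145* minus that of *pif3*/WT. A gene was called at an adjusted p (Benjamini-Hochberg over all genes tested) of at most 0.05 and at least a 2-fold change, and for the interaction at the adjusted p alone. SE values are on the log2 scale. The fit was also run on simulated counts that held no replicate effect, unlike the libraries here, and nothing is concluded from that run. The members and lists were chosen with earlier results of these data known. The genes named beyond the 4 were the PIF genes, *PIL1*, *HFR1* and *XTH15*, the neighbours, the called genes of each list (at most 5, otherwise the 2 most abundant) and the 5 genes nearest to each of the 4. *FIT*, *PGL3*, *PGL4*, *MYB72*, *IRT1*, *S8H*, *CYP82C4*, *F6H1*, *ABCG37*, *BGLU42*, *NAS1*, *URI*, AT1G05170 and the marker genes were named after their values were seen.

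Libraries of a genotype differed beyond sampling noise (the smallest chi-square divided by its degrees of freedom was 37.5). Their deviations from the genotype means correlated at 0.613 to 0.774 in the 18 pairs of the same replicate number and at -0.574 to -0.0192 in the 36 other pairs, so the numbers were taken to pair the libraries. The labels do not say what a number marks. The fit with genotype alone left this pairing out, so its SE and p-values include the spread between replicate numbers. Its common dispersion, a measure of spread over all genes, was 0.0572, against 0.00719 with the replicate block. Without molecular identifiers, a counting interval covers counting error only. Symbols, coordinates and sequences came from RefSeq's annotation of TAIR10.1, in which 32835 loci (97.7%) were found. Alternatives were DESeq2 1.42.0, no scaling factors, other filters, the replicate block, the platform as a term, the omission of libraries and a fit of only the genotypes compared.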

Additional observations from a re-analysis of the deposited data

Results flagged for a closer look

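For *MYB10*, *PGL2*, AT4G11610 and AT2G32430, which were chosen on the difference between the effects of losing PIF3 in the *pif145* background and in WT, the log2 of *pifq*/*pif145* minus that of *pif3*/WT was -2.82, -2.83, -1.78 and -1.55. For the comparison genes the difference was tested by edgeR and was -3.53 for *PIL1* (adjusted p = 0.0256), -1.67 for *HFR1* (adjusted p = 0.0286) and -2.61 for *XTH15* (adjusted p = 0.00888). The calls of *PIL1* and *HFR1* were lost in 10 and 11 of 12 omissions of a single library, and in each of the 3 fits without 1 replicate number in every genotype. These fits had genotype as the only term, and those without replicate 2 or 3 called no gene at all. With 3 libraries per genotype, single libraries were not tested as outliers.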

How the results depend on the processing

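The *pifq*/*pif145* ratio and the interaction of the 4 genes were recomputed under 22 alternatives, which gave 172 values. All 172 were negative and moved by less than the SD over replicates. The genes were chosen for this sign in the same libraries, so the sign is no independent support. With the replicate block the interaction was -2.83 (SE 0.14) for *MYB10*, -2.88 (SE 0.33) for *PGL2*, -1.78 (SE 0.12) for AT4G11610 and -1.54 (SE 0.12) for AT2G32430. Leaving out libraries gave interactions of -2.93 to -2.68, -3.18 to -2.64, -1.88 to -1.69 and -1.65 to -1.43, and *pifq*/*pif145* ratios of -3.54 to -3.28, -2.99 to -2.45, -2.37 to -2.20 and -1.64 to -1.58, in that order. Without replicate 1 of every genotype 1 of them passed the interaction, of 3 genes in all. Without replicate 2 or replicate 3 none of them passed, of 0 genes in all (edgeR). The cause of the lost calls was not tested. The *pif3*/WT ratio of *MYB10* was -0.71 with no scaling factors, and with libraries left out it ran from -0.73 to -0.52 for *MYB10*, 0.07 to 0.41 for *PGL2*, -0.66 to -0.39 for AT4G11610 and -0.20 to 0.01 for AT2G32430.

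In *pifq*/WT the iron list had 0 calls when genes had to reach 5 CPM in 3 libraries, which removes *NAS4*, and 2 with the replicate block or the platform as a term. The pentose phosphate list had 0 calls with no scaling factors and 0 at that filter, and the MCTP list had 0 with no scaling factors. The cause was not tested for the scaling. With libraries left out the counts ran from 1 to 1 for the iron list, 0 to 2 for the pentose phosphate list, 0 to 1 for the MCTP list and 0 to 1 for the GT31 list. The neighbours had 0 calls in *pifq*/WT, *pifq*/*pif145* and the interaction under every alternative. Over all genes the interaction gave 20 calls, against 57 by DESeq2, 74 with the platform as a term and 0 to 27 with libraries left out. The *pifq*/*pif145* contrast gave 133 calls, against 210 by DESeq2, 253 with the platform, 51 in a fit of those 2 genotypes and 11 to 162 with libraries left out, and *pif3*/WT gave 7 calls, against 62 by DESeq2, 43 with the platform and 0 to 21. Among the 4 genes, counting error was largest for *PGL2* in *pifq* (28.9% of its level, from 8 to 15 reads per library).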
